A study of Mus musculus with 4 samples.

Results

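The genes described here encode subunits of the 3 nuclear RNA polymerases. The rule that defines them reads gene names only and takes every gene of the count tables whose GENCODE mouse symbol begins with Polr1, Polr2 or Polr3 followed by a letter. The rule found 29 of 50600 genes, namely 5 Polr1 genes, 14 Polr2 genes and 10 Polr3 genes. Of these, 28 are protein coding, spread over 17 chromosomes, and 1, Polr2k-ps, is a pseudogene.

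The cells were primary T cells of the inbred mouse strain C57BL/6NJ, and their RNA gave 4 libraries of 1 group, numbered as biological replicates 1 to 4. The sample labels give no culture condition, allele or treatment, the age is unknown and the sex was not collected; a protocol for CD4+ T-cell differentiation is linked, and the names inside the count files carry Th0, activated and 24 h for all 4. The assay is titled total RNA-seq, while the name of its library protocol says poly(A)+. All 4 libraries carry the same donor entry and no label says that they came from separate animals, so every p-value reflects nothing but the spread of these 4 samples, which may be technical.

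RNA polymerase I transcribes the large ribosomal RNA precursor, RNA polymerase II transcribes messenger RNAs and many small nuclear RNAs, and RNA polymerase III transcribes transfer RNAs, 5S ribosomal RNA and other short RNAs. Each enzyme is built around a pair of very large subunits that together form the active site. Around that pair sit subunits that all 3 enzymes share, subunits shared by RNA polymerases I and III, and subunits of 1 enzyme alone. T cells that leave the resting state grow and make more ribosomes and transfer RNAs, which draws on all 3 enzymes. The libraries measure the messenger RNAs of the subunits, not the enzymes or their products.

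Gene-assigned fragments summed to 273136467 in replicate 2 and to between 47558517 and 60102919 in the other 3 libraries. Trac, Trbc2, Cd3d, Cd3e, Cd3g and Cd4, genes of the T-cell receptor complex and the helper co-receptor, each reached 10 TPM in all 4 libraries and summed to between 3894 and 4196 TPM. TPM is the count of a gene divided by its exon length, then scaled by the sum of such length-scaled counts over all genes of the library. Markers of other cells summed to 1.74 to 4.46 TPM for 3 B-cell genes, 0.0704 to 0.642 for 3 myeloid genes, 0 to 0.172 for 2 natural killer genes and 0.0173 to 0.302 for 2 stromal genes. Csf1r, Klrb1c, Hba-a1, Hbb-bs and Col3a1 had no fragment in any library.

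The sequences of 2 members that differ in name only by a suffix are shown first, since the 2 rows are close copies with very different counts. Polr2k (mm10 chromosome 15, 36174010 to 36177010, plus strand) encodes a small zinc-binding subunit shared by all 3 enzymes. Polr2k-ps (chromosome 11, 95761491 to 95761665, plus strand) is an intronless copy of its coding region. The stretch of the principal Polr2k transcript that aligns to the pseudogene and the whole pseudogene transcript are given below from the GENCODE vM21 transcripts, 5′ to 3′, with the bases that differ in capitals.
Polr2k: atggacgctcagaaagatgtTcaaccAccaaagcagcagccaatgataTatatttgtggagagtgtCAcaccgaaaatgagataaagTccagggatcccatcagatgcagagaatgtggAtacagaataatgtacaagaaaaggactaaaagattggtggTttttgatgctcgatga
Polr2k-ps: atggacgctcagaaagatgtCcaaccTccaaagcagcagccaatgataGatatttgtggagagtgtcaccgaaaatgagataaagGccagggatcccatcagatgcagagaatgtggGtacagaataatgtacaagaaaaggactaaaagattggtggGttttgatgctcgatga
Of the 177 Polr2k bases, 169 were identical in the pseudogene, 6 were mismatched and 2 were missing from it, an identity of 95.5% over the aligned columns. Counted from the first base of the Polr2k stretch, with the Polr2k base first, the mismatches were T21C, A27T, T49G, T88G, A120G and T161G. The longest identical run was 40 bases. Polr2k-ps had 1 fragment, in replicate 3, and none in the other 3 libraries. That lies under the detection floor of 3 fragments, which in the shallowest library corresponds to 1.22 TPM for a gene of this length, so no level or fold is given for it. Floors cover counting error only.

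RNA of all 28 coding genes was detected in every library of these T cells. With the exon lengths of the count tables, every one stood at 10 TPM or more in all 4 libraries, and 13 stood at 100 TPM or more in all 4. With the length of each gene's principal transcript in GENCODE, an alternative added after the values were seen and with TPM rescaled over all genes, 27 of the 28 reached 10 TPM in all 4, and Polr3gl, with a mean of 9.44 TPM, did not. As FPKM, a smaller unit in these libraries, 23 reached 10. Fragments were counted over all exons of a gene in either case. A principal transcript much shorter than those exons therefore raises the gene by construction, before TPM is rescaled. Orders and ranks below refer to the exon lengths of the count tables unless the principal transcript is named. Among the 11483 genes at 1 TPM or more in all libraries, 70.6% reached 10 TPM in all of them. The median over the 28 genes of the mean TPM was 92.9, beside 28.6 over those 11483 genes. Polr3g, Polr3f and Polr3gl had means below 28.6 TPM. In bulk RNA, fewer cells of a type and less RNA per cell cannot be told apart, so a level here is an average over the cells of each library.

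By enzyme, the Polr2 genes had the highest median, 171 TPM over 13 coding genes, with a range of 33.4 for Polr2k to 511 for Polr2f. The 5 Polr1 genes had a median of 139 TPM and ranged between 54.6 for Polr1e and 244 for Polr1c. The 10 Polr3 genes had a median of 52.6 TPM and ranged between 12.2 for Polr3gl and 115 for Polr3d. Each library gave the same order of the 3 medians: 176, 173, 180 and 178 TPM for Polr2 genes, 142, 137, 138 and 140 TPM for Polr1 genes, and 54.5, 53.0, 52.7 and 50.8 TPM for Polr3 genes in replicates 1 to 4. With the principal transcript length the medians of Polr2 and Polr1 genes were 174 and 167 TPM, a gap within the spread of the genes that hold them. The levels of the 3 sets overlapped gene by gene. Symbols do not follow the enzymes exactly, since 5 Polr2 genes encode subunits of all 3 enzymes and Polr1c and Polr1d serve RNA polymerases I and III. Without the shared 5, the 8 remaining Polr2 genes had a median of 196 TPM.

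**Figure D1:**
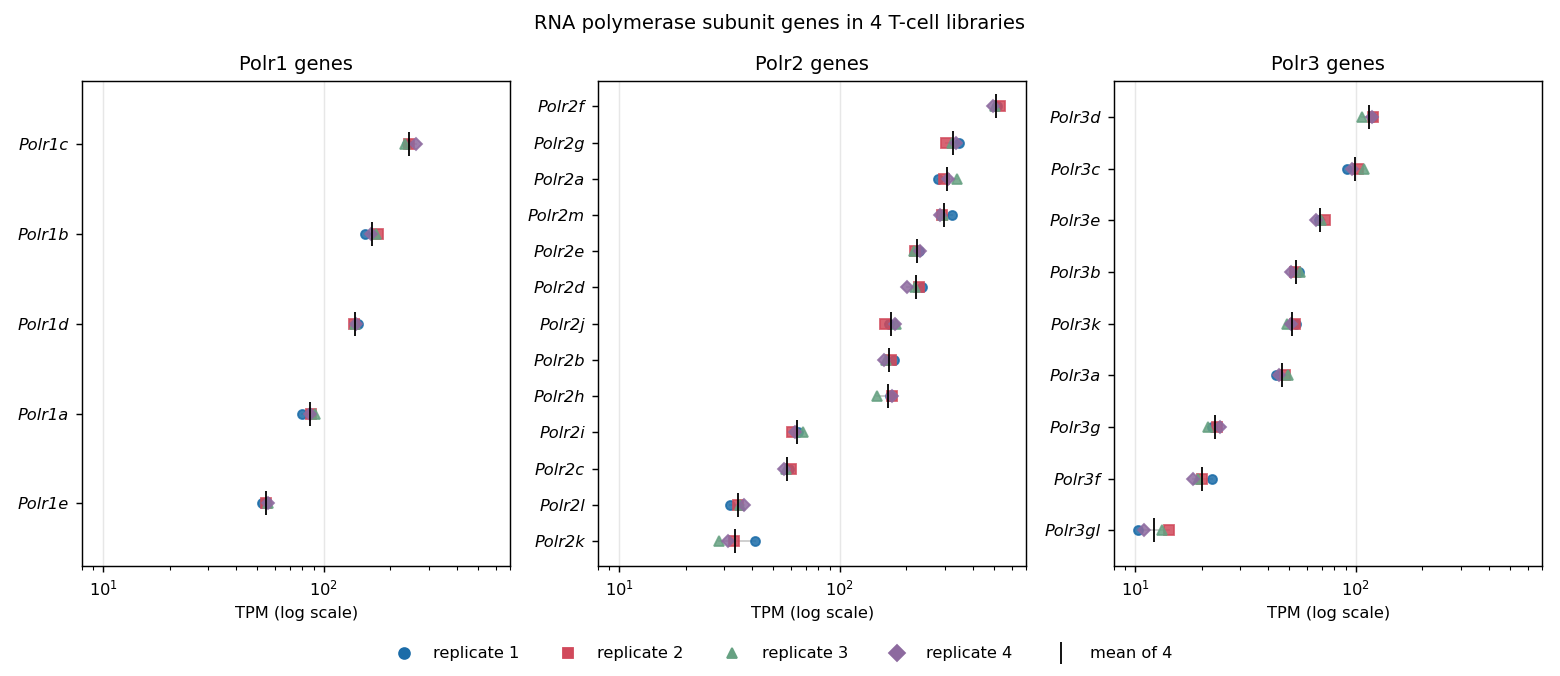
TPM (log scale) of 27 of the 28 coding subunit genes in each of the 4 libraries, in a panel for each symbol group and ordered by mean; coloured points are replicates and the black tick is their mean. The 4 points of nearly every gene lie close together, while the means run between 12.2 TPM for Polr3gl and 511 TPM for Polr2f.

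The catalytic pair of each enzyme was compared first. Polr2a, the largest subunit of RNA polymerase II, carries the C-terminal repeat domain that is phosphorylated during transcription (mm10 chromosome 11, 69733997 to 69758637, minus strand). It had 278, 297, 340 and 310 TPM in replicates 1 to 4, a mean of 306 ± 26.2 (SD, n = 4). Polr1a, its counterpart in RNA polymerase I (chromosome 6, 71909053 to 71984935, plus strand), had 80.0, 87.2, 90.9 and 86.9 TPM (86.2 ± 4.54). Polr3a, the largest subunit of RNA polymerase III (chromosome 14, 24448694 to 24487046, minus strand), had 43.5, 47.9, 49.4 and 44.7 TPM (46.4 ± 2.74). No library of Polr2a overlapped with one of Polr1a, nor one of Polr1a with one of Polr3a, and all 3 genes were lowest in replicate 1 and highest in replicate 3.

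The second largest subunits were ordered in another way. Polr2b had 176, 170, 162 and 159 TPM (167 ± 7.72) and Polr1b had 154, 175, 172 and 164 TPM (166 ± 9.19). Polr3b had 55.5, 53.0, 55.9 and 50.7 TPM (53.8 ± 2.44). The Polr2b and Polr1b values overlapped with these lengths, while Polr3b lay below both in every library.

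Within each library, Polr2a exceeded Polr1a by 1.81 ± 0.06 and Polr3a by 2.70 ± 0.08 on the log2(TPM + 1) scale, and Polr1a exceeded Polr3a by 0.88 ± 0.04 (mean ± SD, n = 4). In TPM, the Polr2a to Polr1a ratio lay between 3.40 and 3.74. Polr2b exceeded Polr3b by 1.61 ± 0.06 and Polr1b exceeded Polr3b by 1.61 ± 0.11. Polr2b minus Polr1b was 0.00 ± 0.12, with Polr2b higher in 1 of 4 libraries (replicate 1). With the principal transcript length that difference was -0.36 ± 0.12, with Polr2b higher in 0 of 4 libraries. The partners of an enzyme were not at equal levels: Polr2a stood above Polr2b by 0.87 ± 0.18, Polr1a minus Polr1b was -0.94 ± 0.04, and Polr3a minus Polr3b was -0.21 ± 0.09. With the exon lengths of the count tables, the sign was the same in 4 of 4 libraries for each of these pairs except Polr2b minus Polr1b.

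In all, 17 gene pairs were compared in this way. With 4 libraries, flipping the signs of the differences in every possible way (an exact permutation test, two-sided) gives a p of 0.125 at the least, above the threshold of 0.05. It was 0.125 for 16 of the 17 pairs (exact p, or 0.133 after Benjamini-Hochberg adjustment over the pairs), and Polr2b minus Polr1b gave an exact p of 1. The p-values therefore do not order the pairs, and the differences are read against their own SD.

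**Figure D2:**
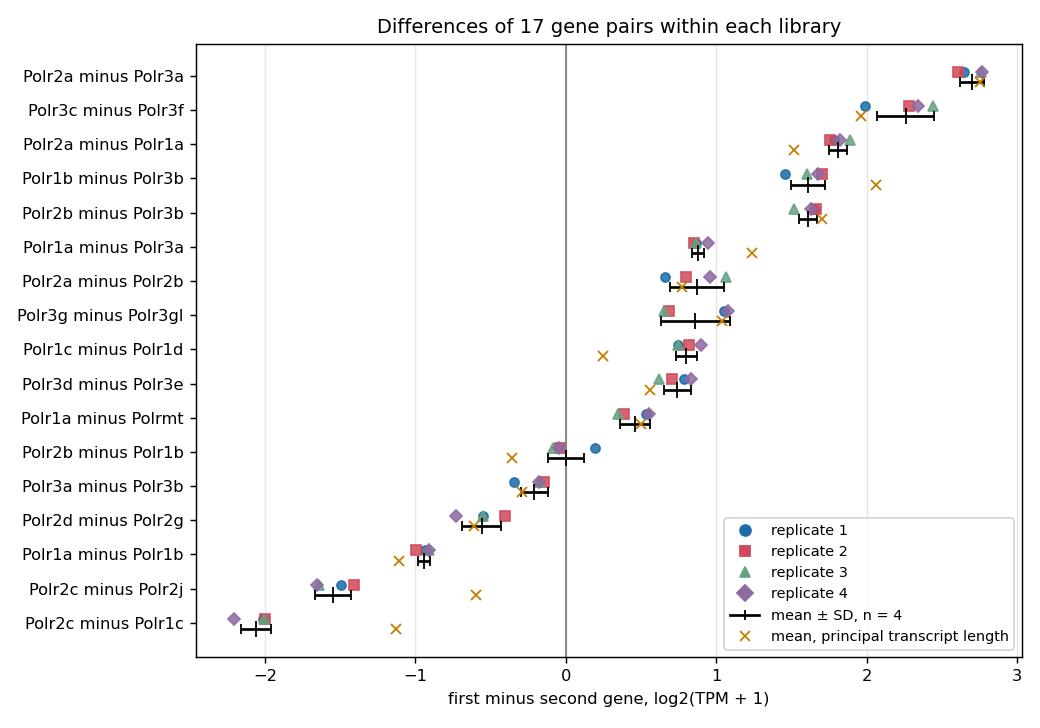
Difference of the first minus the second gene of each of 17 pairs, in log2(TPM + 1), for each of the 4 libraries (coloured points), with the mean ± SD in black and, as crosses, the mean difference when the length of the principal transcript replaces the length of all exons. The points of 16 pairs lie on 1 side of 0; those of Polr2b minus Polr1b lie on both.

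A second group of roles is the assembly platform, a pair of subunits related to the bacterial alpha subunit. RNA polymerases I and III share Polr1c and Polr1d, and RNA polymerase II uses Polr2c and Polr2j. Polr1c (chromosome 17, 46243920 to 46248054, minus strand) was the highest Polr1 gene, at 239, 242, 232 and 262 TPM (244 ± 12.6). Polr1d had 142, 137, 138 and 140 TPM (139 ± 2.26), with the smallest coefficient of variation among the 28 genes, 1.63%. Polr1c was above Polr1d in every library.

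For the RNA polymerase II pair, Polr2j had 167, 160, 180 and 178 TPM (171 ± 9.39). Polr2c (chromosome 8, 94857450 to 94873535, plus strand) had 58.6, 59.8, 57.0 and 56.0 TPM (57.8 ± 1.71). Polr2c was thus the lower of the pair in every library, and lower than each of the other 7 Polr2 genes outside the shared set. On the log2(TPM + 1) scale, Polr2c minus Polr2j was -1.55 ± 0.12, Polr2c minus Polr1c was -2.06 ± 0.10 and Polr1c minus Polr1d was 0.80 ± 0.07.

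Those values rest on the length used. The count tables give Polr2c 5256 exon bases, 3.33 times the 1580 bases of its principal transcript in GENCODE, the largest such ratio among the 28 genes. With the principal transcript length, Polr2c stood at 133 ± 3.88 TPM, Polr2j at 203 ± 11.3, Polr1c at 292 ± 14.8 and Polr1d at 245 ± 3.89. The differences then shrank to -0.60 ± 0.12 for Polr2c minus Polr2j, -1.13 ± 0.10 for Polr2c minus Polr1c and 0.25 ± 0.07 for Polr1c minus Polr1d, each with the same sign in 4 of 4 libraries. Polr2c was then no longer the lowest of the Polr2 genes outside the shared set, since Polr2b stood at 130 and Polr2i at 65.5 TPM. Which transcripts the cells used is not given by a count per gene.

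The stalk of RNA polymerase II, formed by Polr2d and Polr2g, binds the emerging RNA and initiation factors. Polr2g (chromosome 19, 8793129 to 8798557, minus strand) had 345, 303, 321 and 335 TPM (326 ± 18.2), the second highest mean of all members with these lengths. Polr2d had 235, 229, 219 and 202 TPM (221 ± 14.7). Polr2d minus Polr2g was -0.56 ± 0.13 on the log2(TPM + 1) scale, and the values did not overlap. With the principal transcript length Polr2g stood at 220 ± 12.3 TPM, below the means of Polr2e, Polr1c, Polr1d, Polr2m and Polr2a. Polr2a exceeded Polr2g by only 0.01 ± 0.16 on the log2(TPM + 1) scale, in 2 of 4 libraries, which is within the spread. With that length Polr2d stood at 144 ± 9.61 TPM, and Polr2d minus Polr2g was -0.61 ± 0.13.

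Of the other RNA polymerase II genes, Polr2i encodes a zinc-ribbon subunit that acts in start-site selection and proofreading. It had 64.5, 60.5, 68.4 and 62.5 TPM (64.0 ± 3.39). Polr2m encodes a protein that associates with the enzyme and competes with an initiation factor, rather than a core subunit. It stood at 321, 291, 292 and 285 TPM (297 ± 16.3), within the range of Polr2a and Polr2g. Of its 2424 exon bases, 421 also belong on the same strand to another annotated gene, ENSMUSG00000092137.7, and fragments there are not assigned to either. With the 421 bases left out of the length, the mean of Polr2m was 355 TPM, above Polr2g at 322 TPM with its length set in the same way.

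The 5 genes whose proteins enter all 3 enzymes had the widest range of levels among the roles compared. Polr2f (chromosome 15, 79141351 to 79151774, plus strand) had 516, 531, 502 and 494 TPM (511 ± 16.2), the highest of all members in every library. Polr2e had 228, 218, 216 and 230 TPM (223 ± 7.11), and Polr2h had 168, 173, 148 and 173 TPM (165 ± 11.9). Both lay between the largest subunits of RNA polymerases II and I.

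At the low end of the shared set, Polr2l had 31.7, 34.7, 35.4 and 36.9 TPM (34.7 ± 2.20) and Polr2k had 41.3, 33.1, 28.4 and 31.0 TPM (33.4 ± 5.59). Their values overlapped, and both were below Polr3a in every library. The highest mean of the set was 15.3 times the lowest. With the principal transcript length Polr3a exceeded Polr2k by 0.13 ± 0.29 on the log2(TPM + 1) scale, in 3 of 4 libraries, so that order is within the spread.

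Shared sequence and length bear on the extremes of that set. Of all stretches of 50 bases in the annotated transcripts of Polr2k, 21.6% also occurred in another gene, as did 20.9% for Polr2l, 11.2% for Polr2c, 10.8% for Polr1d and 8.72% for Polr2h. These were the 5 coding members above 5%, and 16 had no such stretch. The predicted gene Gm14567 shared 125 of them with Polr2k and Usp50 shared 283 with Polr2l. Fragments that align to several places were not counted, so the levels of these 5 genes are uncertain; how much was lost was not tested. For Polr2f the count tables use 543 exon bases, while its principal transcript in the later annotation has 885. Fragments were counted over the 543 bases only, so the longer length lowers Polr2f by construction. With that length and TPM rescaled, Polr2f stood at 217 ± 6.80 TPM and Polr2e, at 359 ± 11.2, became the highest member and stood above Polr2a, while Polr2l stood at 24.0 ± 1.52 and Polr2k at 29.5 ± 4.92. The highest mean of the shared set was then 15 times the lowest. Fragments of Polr2e were counted over 2670 exon bases, so its principal length of 1148 bases raises it by construction. The place of Polr2f below Polr2e with the principal transcript length is therefore not settled.

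**Figure D3:**
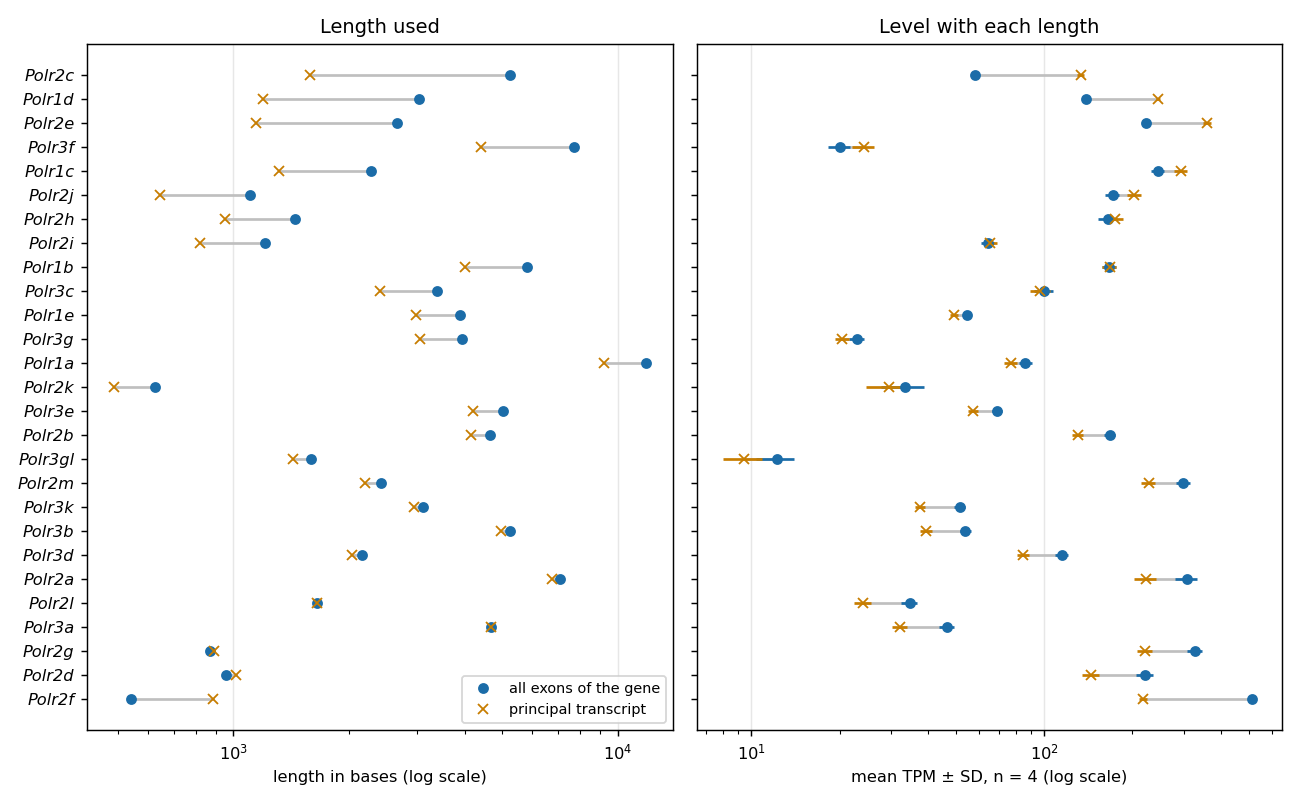
Left, the exon bases used in the deposited count tables (circles) and the length of the principal transcript (crosses) for 27 of the 28 coding genes, ordered by their ratio; right, the mean TPM ± SD over 4 libraries with each length, all on log scales. The upper genes, with Polr2c first, gain TPM with the principal transcript length. Polr2f, at the bottom, drops to 217 TPM with it, although its fragments were counted over 543 bases only.

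Among the members of RNA polymerase I alone, Polr1e encodes part of a heterodimer that resembles an initiation and elongation factor of RNA polymerase II. It had 52.4, 54.5, 55.8 and 55.7 TPM (54.6 ± 1.61), the lowest of the Polr1 genes. Its partner is annotated under another symbol, Cd3eap, and had 94.5, 105, 92.9 and 95.0 TPM (96.9 ± 5.54). Subunits under other symbols also included Znrd1, a small zinc-binding subunit of RNA polymerase I (151 ± 4.24 TPM), Twistnb, a stalk subunit of RNA polymerase I (43.0 ± 3.91), and Crcp, a stalk subunit of RNA polymerase III (89.6 ± 5.77). All 4 genes reached 10 TPM in each library.

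RNA polymerase III has a subcomplex of Polr3c, Polr3f and either Polr3g or Polr3gl, which contacts the initiation factor at its promoters. Polr3c had 91.3, 102, 109 and 96.1 TPM (99.6 ± 7.54), and Polr3f had 22.3, 20.2, 19.3 and 18.2 TPM (SD 1.73, n = 4). Polr3c minus Polr3f was 2.26 ± 0.19 on the log2(TPM + 1) scale, and 1.96 ± 0.19 with principal transcript lengths. Polr3f has 7710 exon bases, 1.75 times its principal transcript.

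Polr3g and Polr3gl are paralogues that occupy the same place in the enzyme. Polr3g is known for its high level in pluripotent and tumour cells, and Polr3gl for its broad use in differentiated cells. In these T cells Polr3g had 22.4, 23.5, 21.3 and 24.3 TPM (22.9 ± 1.33), and Polr3gl had 10.3, 14.2, 13.2 and 11.0 TPM (12.2 ± 1.82). Polr3g was higher in all 4 libraries without overlap, at 1.62 to 2.21 times Polr3gl, and the difference was 0.86 ± 0.23 on the log2(TPM + 1) scale. Polr3gl was the lowest coding member in every library and still at the percentile 30.8 of the 11483 expressed genes. With principal transcript lengths the difference was 1.04 ± 0.22.

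The sequences around the starts of this paralogue pair are shown because the 2 genes fill 1 position in the enzyme. They run over 250 bases before to 50 after the annotated start, from RefSeq on GRCm38.p6, 5′ to 3′ on the gene's strand. Polr3g lies at chr13:81710964-81711263 and Polr3gl at chr3:96594132-96594431, both on the minus strand. Capitals mark matches on either strand to the E-box CACGTG, the CCAAT box CCAAT, the TATA box TATAAA, the ETS core CCGGAA or the YY1 core AAGATGG.
Polr3g: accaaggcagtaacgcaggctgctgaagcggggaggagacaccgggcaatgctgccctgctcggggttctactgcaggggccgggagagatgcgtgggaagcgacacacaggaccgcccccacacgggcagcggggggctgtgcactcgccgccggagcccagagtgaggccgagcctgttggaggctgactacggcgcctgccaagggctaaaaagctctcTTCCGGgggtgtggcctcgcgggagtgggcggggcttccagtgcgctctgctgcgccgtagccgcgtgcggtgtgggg
Polr3gl: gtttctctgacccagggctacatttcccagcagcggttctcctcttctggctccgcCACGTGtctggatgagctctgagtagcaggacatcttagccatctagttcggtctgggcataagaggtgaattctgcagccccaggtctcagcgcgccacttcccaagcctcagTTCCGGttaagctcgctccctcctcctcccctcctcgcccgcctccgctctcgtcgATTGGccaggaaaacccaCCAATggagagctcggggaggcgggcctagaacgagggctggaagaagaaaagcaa
The Polr3g window held 1 match, to the ETS core, with a GC content of 69.7% and 26 CG dinucleotides. The Polr3gl window held 4 matches, namely the E-box, 2 CCAAT boxes and 1 ETS core, with a GC content of 59.3% and 16 CG dinucleotides.

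RefSeq windows were at hand for 24 starts of 22 member genes. The ETS core was found in 11 of the 24 (45.8%), beside 14.9% of all 32851 windows, and the E-box in 4 (16.7%), beside 7.15%. The CCAAT box was found in 7 (29.2%, beside 37.4%), the TATA box in 2 (8.33%, beside 13.6%) and the YY1 core in 0 (beside 6.34%). The 11 windows with an ETS core belonged to Polr1c, Polr1e, Polr2c, Polr2e, Polr2f, Polr2j, Polr2m, Polr3b, Polr3c, Polr3g and Polr3gl, and the 4 with an E-box to Polr2h, Polr3c, Polr3e and Polr3gl. Windows of 1 gene overlap and a match of letters is not a binding site. The share over all windows includes genes without RNA here. Shares over expressed genes or over windows of like GC content were not computed. Polr3gl and Polr3c, both on the minus strand of chromosome 3, are 117308 bases apart.

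Other subunits of RNA polymerase III lay closer together. Polr3d and Polr3e form a heterodimer that resembles an initiation factor of RNA polymerase II. Polr3d had 118, 119, 107 and 118 TPM (115 ± 5.85), the highest Polr3 gene by its mean, and Polr3e had 67.9, 72.5, 69.3 and 65.8 TPM (68.9 ± 2.83). The difference of Polr3d and Polr3e was 0.74 ± 0.09 on the log2(TPM + 1) scale, and 0.56 ± 0.09 with principal transcript lengths. With those lengths the order of the 2 highest Polr3 genes turned, with Polr3c at 97.0 ± 7.44 TPM above Polr3d at 84.7 ± 4.19 TPM in 4 of 4 libraries. Polr3k, a small subunit that acts in termination and RNA cleavage, had 53.4, 53.0, 48.6 and 50.9 TPM (51.5 ± 2.23). Polr3b, Polr3k and Polr3a, at means of 46.4 to 53.8 TPM, thus lay within a narrow band.

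Placed in order of their means, the 28 genes give 27 neighbouring pairs. In 12 of these the higher gene was not higher in all 4 libraries, and in 10 the mean log2 difference was within 1 SD. Such neighbours included Polr2g, Polr2a and Polr2m at the top, and Polr2j, Polr2b, Polr1b and Polr2h in the middle. They also included Polr2e and Polr2d, Polr1e and Polr3b, and Polr2l and Polr2k. The steps that stood clear of their spread included Polr2f over Polr2g (0.65 ± 0.11). With the principal transcript length, which lowers Polr2f by construction, Polr2g was above Polr2f by 0.02 ± 0.11 in 3 of 4 libraries. The clear steps also included Polr3a over Polr2l (0.41 ± 0.09), Polr2k over Polr3g (0.52 ± 0.23) and Polr3f over Polr3gl (0.68 ± 0.25). Across the 28 genes, exon length and mean TPM had a Spearman correlation of -0.25, a description over genes that share all 4 libraries; over the 11483 expressed genes it was -0.01.

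The only contrast the design allows is between the replicates themselves. For each gene, the residual deviance of an edgeR fit with 1 mean for all 4 libraries was set against a chi-square distribution, and a gene was called variable at a Benjamini-Hochberg adjusted p under 0.05 over the 12712 genes tested. Of these 12712 genes 46 were called, or 0.362%. None of the 28 coding members was called by edgeR (0 of 28), and 0 had an unadjusted p under 0.05, against 704 of all genes tested. With so low a share over all genes, a count of 0 among 28 does not set the members apart. Polr2k-ps did not pass the filter on low counts. The median deviance of the 28 was 1.59, beside 1.98 over all genes tested.

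The members with the largest deviances were Polr3f (4.46), Polr2h (4.17), Polr2k (4.08) and Polr3c (3.91), each with an edgeR adjusted p of 1. Coefficients of variation ran between 1.63% for Polr1d and 16.7% for Polr2k, with a median of 5.40% beside 7.53% over the genes tested and 5.66% over the 8109 genes at 10 TPM or more in every library. Polr3gl was the second most variable, at 14.9%. Both are among the least counted members: Polr2k had 457, 1633, 250 and 271 fragments in replicates 1 to 4, and Polr3gl had 293, 1799, 297 and 247. Counting error alone would give 6.32% for Polr2k and 6.36% for Polr3gl in their lowest library.

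Across all genes tested, deviations followed base composition most strongly in replicate 1, and across the members in replicate 4. Deviations are taken from each gene's own mean, so the correlations of the 4 libraries depend on each other. GC content was taken from the principal transcript of each gene. The Spearman correlation between it and the deviation of a gene from its own mean in replicate 1 was -0.38 across the 28 members and -0.35 across all genes tested. In replicates 2, 3 and 4 it was -0.07, 0.23 and 0.42 across the members, and 0.08, 0.19 and 0.20 across all genes. These are descriptions over genes of the same libraries. Polr2k, with a GC content of 37.8% the most AT-rich member, was 0.33 above its mean in replicate 1 on the log2 CPM scale and 0.23 below it in replicate 3. Polr3f, at 41.8% GC, was 0.17 above its mean in replicate 1. Other AT-rich members moved less there: Polr3k, at 40.9% GC, was 0.07 above its mean and Polr3g, at 43.8% GC, was 0.02 below it. In 27 of the 28 genes every library lay within 0.25 of the mean. When the GC trend of each library was removed, an alternative added after the values were seen, 57 genes were called and again 0 of the 28 members.

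**Figure D4:**
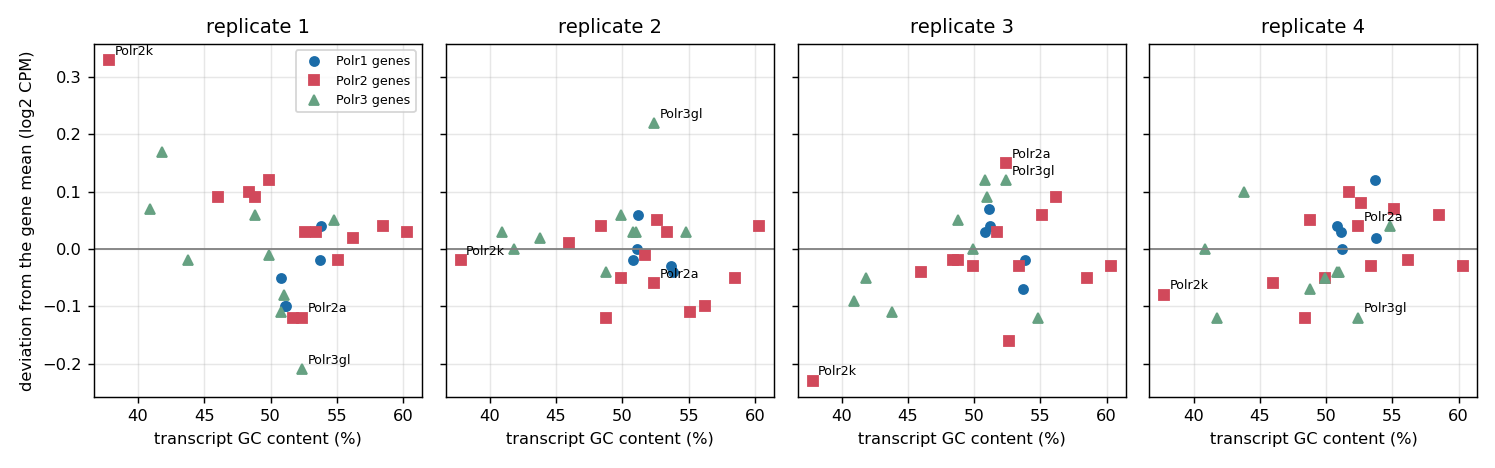
Deviation of 27 of the 28 coding genes, each from its own mean (log2 CPM) in each of the 4 libraries, against the GC content of its principal transcript in percent. Circles are Polr1, squares Polr2 and triangles Polr3 genes. Polr2k, at the left edge, is at 0.33 in replicate 1, and in the other libraries it is below 0.

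The highest value fell in replicate 1 for 8 genes, in replicate 2 for 6, in replicate 3 for 9 and in replicate 4 for 5. The lowest value fell in those replicates for 9, 4, 7 and 8 genes. The median deviation of the 28 was 0.024, 0.006, -0.020 and -0.012 on the log2 scale in replicates 1 to 4.

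RNA of the listed genes that work with the polymerases was also present, and none of those listed was called variable between replicates by edgeR. Gtf2a2, Rpap1 and Polrmt, named after their values were seen, had an unadjusted p under 0.05, with edgeR adjusted p-values of 0.703, 0.679 and 0.679. Beside 0.362% of all genes called and 704 of 12712 with an unadjusted p under 0.05, these counts do not set the listed genes apart. For RNA polymerase I, all 7 listed factors reached 10 TPM in each library (median 48.7 TPM). Ubtf, which coats the ribosomal gene promoter, was at 169 ± 5.07 and Rrn3, which recruits the polymerase, at 168 ± 2.90, while the terminator-binding Ttf1 was at 23.9 ± 0.707 TPM (SD, n = 4). With the principal transcript length Taf1d, at 48.7 ± 3.87 TPM with the exon length, averaged 263 TPM and was the highest of the 7. Its fragments were still counted over all exons, so the shorter length raises Taf1d by construction and that rank is not settled.

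All 18 listed initiation factors of RNA polymerase II reached 10 TPM in each library (median 39.4 TPM). Gtf2f1, a subunit of the factor that escorts the enzyme to promoters, was highest at 272 ± 16.7. Gtf2h1, a subunit of the factor that opens the promoter, followed at 142 ± 9.64, and Tbp, the TATA-binding protein, was lowest at 13.7 ± 0.650. With the principal transcript length 17 of the 18 reached 10 TPM in each library, Tbp averaged 9.90 and the median was 60.2 TPM. The 17 elongation factors and enzymes of the C-terminal domain were likewise all at 10 TPM or more (median 91.2 TPM). Supt4a (193 ± 6.52) and Supt5 (185 ± 11.8), which form an elongation factor together, were the highest, and Rprd1a, which binds the phosphorylated C-terminal domain, was the lowest at 11.2 ± 0.484 TPM. With the principal transcript length 16 of the 17 reached 10 TPM in each library, and Rprd1a averaged 7.78 TPM.

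Of 16 listed factors of RNA polymerase III, 15 reached 10 TPM in each library (median 50.2 TPM). Gtf3a, which binds the 5S gene, was highest at 110 ± 1.79, and Gtf3c1, the largest subunit of the factor that binds transfer RNA genes, had 78.1 ± 6.41. Snapc3, a subunit of the factor at small nuclear RNA genes, was the exception at 7.97 ± 0.529 TPM. That exception rests on the length: with the principal transcript length Snapc3 averaged 26.5 TPM, all 16 reached 10 TPM in each library, and Gtf3a averaged 177 TPM. Fragments were still counted over all exons, so the shorter lengths raise Snapc3 and Gtf3a by construction. The 8 assembly genes, which help build the polymerases before they enter the nucleus, had a median of 73.5 TPM, with the AAA+ ATPases Ruvbl2 at 374 ± 10.5 and Ruvbl1 at 168 ± 11.2 and the phosphatase Rpap2 at 21.8 ± 1.37.

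Mitochondrial DNA is transcribed by a separate single-subunit enzyme, Polrmt, which had 55.0, 66.6, 71.2 and 58.8 TPM (62.9 ± 7.34). Its partners Tfam and Tfb2m stood at 67.5 ± 5.29 and 16 ± 1.22 TPM. Polr1a exceeded Polrmt by 0.46 ± 0.10 on the log2(TPM + 1) scale, in 4 of 4 libraries. Polrmt thus lay between Polr1a and Polr3a by its mean.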

How the data were processed

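The deposited values are fragment counts per gene. They were made with featureCounts 1.4.6-p4, per the file headers, from pairs with both ends aligned to GENCODE vM13 exons with strand setting 2; counting of fragments that align to several places or overlap several genes was not switched on. Per the labels the build is mm10. The aligner's settings are not given in the sources used here.

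TPM was computed from the deposited counts and exon lengths, as the mean ± SD over 4 libraries. Symbols came from GENCODE vM21 and matched 50376 of 50600 identifiers. Every pair of libraries differed by more than sampling noise (chi-square over its degrees of freedom 9.14 to 29.1), so all were kept. Differences among the replicates were tested in edgeR 4.0.16 under R 4.3.3 with limma 3.58.1: filterByExpr with a minimum count of 10, TMM, trended dispersion, residual deviance against a chi-square with 3 degrees of freedom, Benjamini-Hochberg over 12712 genes at 0.05. The test was tested on simulated data. Gene pairs were compared on log2(TPM + 1) by an exact sign-flip permutation test. All members are named but 1 that is not reported here and enters the counts and medians only, and of every other list the 2 highest, the lowest and any gene called; all 4 subunits under other symbols, Tfam and Tfb2m complete short lists. Sequences came from GENCODE vM21 transcripts and RefSeq promoters. The members and lists were chosen with earlier results of these data known. DESeq2 1.42.0 served for size factors only. Python 3.11.15 with numpy 2.4.6, pandas 2.3.3 and scipy 1.17.1 was used.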

Additional observations from a re-analysis of the deposited data

Results flagged for a closer look

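Of 67 sets of 4 values examined (library totals, member levels, pair differences and named genes), 6 held a library that stood apart from the other 3 by Dixon's 95% criterion. Chance alone gives this in about 1 in 20 sets that are independent. Pair differences are built from member levels, so the 67 sets are not independent and the 6 are not read as an excess. The gene-assigned fragments of replicate 2, 273136467, stood above 47558517 to 60102919 in the others. Polr3d stood at 107 TPM in replicate 3, below 118 to 119 TPM in the others. Polr2b minus Polr1b was 0.188 in replicate 1, against -0.0796 to -0.0478 in the others, and Polr3a minus Polr3b was -0.344 in replicate 1, against -0.177 to -0.143, both on the log2(TPM + 1) scale. Replicate 1 is also the library with the correlation of -0.35 between GC content and deviation over all genes tested; its part in these differences was not tested. Polr2c minus Polr1c was -2.20 in replicate 4, against -2.01 to -2.0 in the others. Ttf1 stood at 25.0 TPM in replicate 2, above 23.5 to 23.7 TPM in the others.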

How the results depend on the processing

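No member was called variable by edgeR under any alternative run: no filter (46 of 22271 genes called), a mean of at least 50 counts (54), DESeq2 size factors (45), a common dispersion (862, smallest adjusted p of a member 0.547, Polr2k), replicate 2 thinned to the depth of the others (45), the GC trend removed (57) and each replicate left out (25 to 40). The medians of the Polr1, Polr2 and Polr3 genes were 132, 185 and 49.2 TPM with an effective length, 40.8, 50.1 and 15.4 as FPKM, 144, 177 and 54.4 TPM over genes of at least 200 bases outside the mitochondrial chromosome, and 167, 174 and 38.6 TPM with the principal transcript length, in the same order each time. With the last length, Polr1b and Polr2h hold the medians of 167 and 174 TPM. Polr2h exceeded Polr1b by 0.06 ± 0.15 on the log2(TPM + 1) scale, in 3 of 4 libraries. The order of the Polr1 and Polr2 medians is thus within the spread there. The count of members at 10 or more in all libraries, 28, was 27 with the principal transcript length and 23 as FPKM, and 28 under the other alternatives. Leaving out each replicate gave 169 to 175 TPM for the Polr2 genes. With the principal transcript length, 23 of 28 member means and 11 of 17 pair differences moved by more than 1 SD, Polr2b minus Polr1b among them (-0.36 ± 0.12, Polr2b higher in 0 of 4 libraries). No pair that had 1 sign in all libraries turned. The rescaling of TPM over all genes moves means by itself. Polr2l, with 1650 bases by both lengths, went from 34.7 to 24.0 TPM. No paired analysis was possible because the labels give 1 group. Among the members, Polr2k-ps was the one under the floor of 3 fragments; precision of the rest is limited by the number of libraries.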
